A study of Mus musculus with 8 samples.

Results

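Melanopsin is the light-sensitive protein of intrinsically photosensitive retinal ganglion cells (ipRGCs), and 7 genes tied to it were described in mouse retinal nuclei. They were taken by symbol from the 33696 genes counted in each library, and all 7 were found. Opn4 encodes melanopsin, Plcb4 a phospholipase C, Trpc6 and Trpc7 cation channels, Eomes and Tbx20 T-box transcription factors, and Adcyap1 the neuropeptide PACAP. The assay was single-nucleus RNA sequencing (snRNA-seq), in which a droplet barcode marks a nucleus and a unique molecular identifier (UMI) marks a captured RNA molecule. The 8 libraries came from female mice at postnatal day 120, with replicates 1 to 4 from Piezo2f/f controls (n = 4) and replicates 10 to 13 from the conditional knockout Olig2-cre;Piezo2f/f (cKO, n = 4). Both groups carried floxed Piezo2, and cKO mice also carried Cre as a knock-in at the Olig2 locus, so that the groups differ at Olig2 as well. Each library pooled 6 retinae, and nuclei of retinal ganglion cells (RGCs) had been enriched by sorting with antibodies to RBPMS and NeuN.

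In ipRGCs, light-activated melanopsin couples to G proteins of the Gq family, which activate phospholipase C, and current then flows through TRPC channels. This is the cascade of fly photoreceptors rather than that of rods and cones. Eomes, also called Tbr2, is required for ipRGCs to form and to be maintained. PACAP is released with glutamate by ipRGC axons of the retinohypothalamic tract, which carries light information to the circadian clock. Several ipRGC types are known, from the M1 type, rich in melanopsin, to types such as M4 with little of it.

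Libraries held 35697629 to 60088630 UMIs each, and 34949 nuclei were kept, 15885 control and 19064 cKO. Clusters named from marker genes gave 20327 RGC-like nuclei in 29 clusters, 4180 amacrine-like, 2537 photoreceptor-like, 2087 bipolar-like, 339 horizontal-like and 74 astrocyte-like nuclei, and 7 clusters with 5405 nuclei stayed unnamed. Among the unnamed, cluster 3 (1644 nuclei) carried Müller glia markers but was led by Flt1, an endothelial gene. Another 4 unnamed clusters (2021 nuclei) carried RGC markers but had a marker of another class among their leading genes. Cluster 2 (1655 nuclei) also carried RGC markers, but 53.2% of it came from 1 library. Unnamed clusters, which are outside the RGC-like class, held 9.32% of the gated RGC nuclei described below. Defining RGC markers were present in RGC-like nuclei of every library, with Rbpms at 1130 to 1310 CPM (counts per 1000000 UMIs summed over the class in a library) and Slc17a6 at 226 to 345 CPM. In empty droplets (free RNA alone) Rbpms was at 204 to 325 CPM and Slc17a6 at 489 to 679 CPM, so Slc17a6 was higher there than in RGC-like nuclei. The targeted gene, Piezo2, was at 11.4 to 15.0 CPM in control and 7.82 to 13.1 CPM in cKO RGC-like nuclei. Olig2 had 1 UMI there in controls and 0 in cKO. Counts per gene do not separate the floxed exons from the rest, so they do not measure recombination directly. Of 34811 distinct barcodes among the kept nuclei, 138 were found in more than 1 library.

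On GRCm39, with GENCODE vM39 gene models, Opn4 lies at chr14:34312575-34322099 on the minus strand with 9 exons in its canonical transcript. The other T-box and peptide genes are Eomes (chr9:118307280-118315200, plus strand, 6 exons), Tbx20 (chr9:24629434-24685599, minus strand, 8 exons) and Adcyap1 (chr17:93506397-93515189, plus strand, 5 exons). The channel genes are long, with Trpc6 at chr9:8492905-8682359 (plus strand, 13 exons) and Trpc7 at chr13:56920921-57043806 (minus strand, 12 exons). Plcb4 spans chr2:135500926-135856870 (plus strand, 36 exons). An antisense gene, Gm49012, spans Opn4 without sharing exonic bases, and antisense Gm33460 shares 419 exonic bases with Eomes. The sources used here do not say whether counting used strand, so it could not be checked whether reads of such partners were counted apart.

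Because Eomes and Tbx20 encode T-box factors, the 250 bases upstream of the canonical start were searched on both strands for AGGTGT, the core that T-box factors bind, and for the longer AGGTGTGA, which contains it. The core was found in 2 of 7 members, Trpc7 (as ACACCT, its reverse complement, 167 bases before the start) and Adcyap1 (176 bases before the start). It was found in 2643 of 21418 promoters of protein-coding genes (12.3%), and AGGTGTGA in 208 of them (0.971%) and in 0 of 7 members. A match is a description of letters, not of a bound site. These 3 sequences are shown because Opn4 is the reference gene and the others hold the match, which is in capitals. They run 5′ to 3′ on the strand of the gene, end where the first annotated exon begins, and come from chr14:34322100-34322349 (Opn4), chr13:57043807-57044005 (Trpc7) and chr17:93506190-93506396 (Adcyap1). Of the 250 bases searched, 199 are shown for Trpc7 and 207 for Adcyap1. The distances above count from the canonical start, not from the end of the printed sequence.
Opn4: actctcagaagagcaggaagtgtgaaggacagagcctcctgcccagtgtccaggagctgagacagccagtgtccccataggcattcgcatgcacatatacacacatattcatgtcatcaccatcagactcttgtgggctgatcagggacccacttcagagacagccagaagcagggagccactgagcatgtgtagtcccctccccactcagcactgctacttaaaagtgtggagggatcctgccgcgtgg
Trpc7: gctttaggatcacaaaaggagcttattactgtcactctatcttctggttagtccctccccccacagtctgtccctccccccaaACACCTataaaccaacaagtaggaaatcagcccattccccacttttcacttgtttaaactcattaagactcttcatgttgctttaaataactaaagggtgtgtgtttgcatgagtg
Adcyap1: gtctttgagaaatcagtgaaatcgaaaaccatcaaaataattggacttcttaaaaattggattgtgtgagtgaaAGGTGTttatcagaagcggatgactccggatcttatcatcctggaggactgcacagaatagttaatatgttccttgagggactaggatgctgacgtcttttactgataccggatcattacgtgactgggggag

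The first question was in which retinal classes each gene was found. Opn4, Tbx20, Adcyap1 and Trpc6 were highest in RGC-like nuclei when set against amacrine-like, bipolar-like and photoreceptor-like nuclei and cluster 3, in 8 of 8 libraries each. Against the 2 smallest classes, Opn4 was higher in RGC-like than in horizontal-like nuclei in 5 of 6 libraries, and Tbx20 higher than in astrocyte-like nuclei in 2 of 3 (means of 26.9 and 25.2 CPM). Eomes and Trpc7 were not highest in RGC-like nuclei, and Plcb4 UMIs were found in every class and in empty droplets. Classes were built from the same nuclei, so these levels are descriptions with no test. They are given in CPM as mean ± SD over libraries.

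Opn4 was at 8.09 CPM in the lowest, 10.2 CPM in the median and 15.2 CPM in the highest of 8 libraries in RGC-like nuclei (10.9 ± 2.47), from 1726 UMIs in all. In amacrine-like nuclei the same 3 values were 0.372, 1.71 and 5.59 CPM (1.93 ± 1.59), so the classes did not overlap. Empty droplets, which hold only free RNA, had Opn4 at 27.0 to 42.0 CPM, above its level in RGC-like nuclei. An Opn4 UMI was present in 3.91% of RGC-like nuclei at a median of 6882 UMIs, and in 1.12% of amacrine-like nuclei at a median of 4983 UMIs. With each nucleus thinned to 2000 UMIs the shares were 1.62% and 0.435%, and the amacrine-like share serves as a background of Opn4 detection. It was 0.211% (4 of 1899 nuclei) in control and 0.648% (13 of 2007) in cKO libraries, and these few nuclei came unevenly from the libraries. Without control replicate 3 the control share was 0.0741%, and without cKO replicate 10 the cKO share was 0.495%, values that were added after the data had been seen. In astrocyte-like nuclei, at a median of 2749 UMIs, Opn4 was found in 0 of 74, which allows a share of nuclei with an Opn4 UMI of up to 4.05% at that depth, for counting error alone.

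Of the T-box genes, Tbx20 had the clearer RGC pattern, with 18.1 to 31.1 CPM (24.3 ± 4.6, n = 8) in RGC-like and 0.308 to 3.44 CPM in amacrine-like nuclei. Eomes went the other way. It was at 6.96 to 9.00 CPM (8.16 ± 0.585, n = 8) in RGC-like and at 14.9 to 24.7 CPM (19.8 ± 3.84, n = 8) in amacrine-like nuclei, which were higher in 8 of 8 libraries. Adcyap1 was at 14.4 to 19.5 CPM (17.0 ± 2.08, n = 8) in RGC-like nuclei and at 0.739 to 3.42 CPM in amacrine-like nuclei. In empty droplets Adcyap1 was at 45.9 to 61.5 CPM and Eomes at 17.6 to 30.3 CPM, while Tbx20 was at 11.4 to 16.4 CPM.

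The channel genes differed in class. Trpc6 was at 37.6 to 48.8 CPM (43.9 ± 4.03, n = 8) in RGC-like and 25.4 to 45.1 CPM (35.6 ± 7.35, n = 8) in amacrine-like nuclei, ranges that overlapped although RGC-like nuclei were higher within every library. It was near 0 in bipolar-like nuclei, with a median of 0.536 CPM. Trpc7 was at 10.9 to 20.4 CPM (15.2 ± 2.85, n = 8) in RGC-like nuclei and was higher in bipolar-like nuclei in 8 of 8 libraries (26.8 ± 7.43 CPM). In horizontal-like nuclei Trpc7 reached 64.2 to 120 CPM (81.8 ± 20.4, n = 6), above RGC-like nuclei in 6 of 6 libraries with enough nuclei. Plcb4 was the broadest gene, with 306 ± 13.5 CPM in RGC-like, 338 ± 26.5 CPM in amacrine-like, 759 ± 105 CPM in bipolar-like nuclei (n = 8 each). It reached 1386 ± 137 CPM in cluster 3. RGC-like and photoreceptor-like nuclei (298 ± 34.1 CPM, n = 8) were neighbours in that order and overlapped, with RGC-like higher in 5 of 8 libraries. In empty droplets Plcb4 was at 184 to 247 CPM, not far below these 2 classes, while Trpc6 was at 9.81 to 16.4 CPM and Trpc7 at 5.46 to 12.0 CPM.

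**Figure D1:**
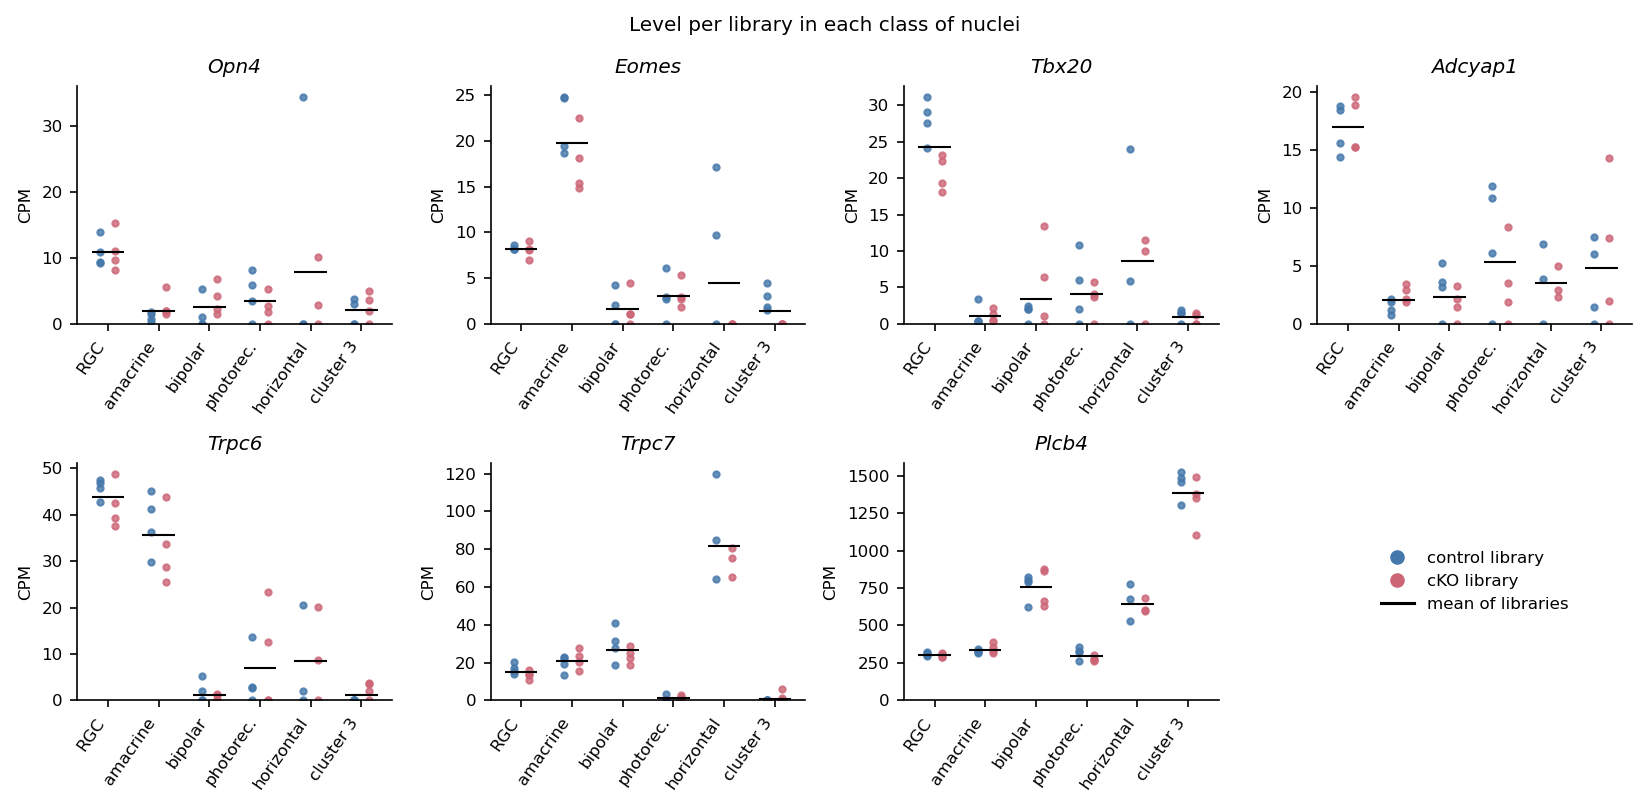
Level of each gene in CPM (vertical axes) in nuclei of each class (horizontal axes), with a point for each library and a line for the mean of libraries. Astrocyte-like nuclei (3 libraries) are not drawn. Tbx20 and Adcyap1 sat highest in RGC-like nuclei, Eomes in amacrine-like nuclei, Trpc7 in horizontal-like nuclei and Plcb4 in cluster 3.

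Within RGCs, Opn4, Trpc7, Eomes and Tbx20 were concentrated in a few clusters, whereas Plcb4 was spread over all of them. The members had been kept out of the genes used for clustering, but clusters come from the same nuclei, so the following values are descriptions. Among 21847 RGC nuclei chosen by a gate (at least 2000 UMIs, and at least 2 UMIs of Rbpms plus Slc17a6), cluster 17 held 2.97% of nuclei but 73.3% of Opn4 UMIs and 82.2% of Trpc7 UMIs. It also held 42.4% of Eomes, 30.5% of Tbx20 and 17.9% of Adcyap1 UMIs. Its shares of Trpc6 (8.15%) and Plcb4 UMIs (4.34%) were closer to its share of nuclei.

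Cluster 17 (689 nuclei) had pooled levels of 246 CPM for Opn4, 398 CPM for Trpc7 and 118 CPM for Adcyap1, each the highest of the 29 RGC-like clusters. Eomes was also highest there, at 112 CPM. This was the melanopsin-rich cluster, and its share of gated RGC nuclei was 2.92 ± 0.498% in control and 2.98 ± 0.209% in cKO libraries (SD, n = 4 each). Cluster 7 (1292 nuclei) had Tbx20 at a pooled 246 CPM, beside 227 CPM in cluster 17. The means over libraries were 239 ± 68.7 and 244 ± 81.4 CPM (n = 8), with cluster 7 higher in 3 of 8, so the clusters did not differ beyond their spread. Cluster 7 held 65.5% of gated Tbx20 UMIs with 5.74% of nuclei. Opn4 was at 6.96 CPM in cluster 7 and Trpc7 at 9.91 CPM, so most Tbx20 transcripts lay outside the melanopsin-rich cluster. Cluster 39 (347 nuclei) was second in Opn4 at 28.1 CPM, with Eomes at 28.3 CPM but Tbx20 at 0.867 CPM, and was led by Il1rapl2, Prph, Ccdc192 and Spp1. Eomes was above its level in most other RGC-like clusters in all 3. Thinned to 2000 UMIs, Plcb4 had a UMI in 40.5, 56.9 and 41.0% of the gated nuclei of clusters 7, 17 and 39, against 43.0% of the gated nuclei outside them. Spp1, which encodes osteopontin, is known from alpha RGCs, among them the M4 type.

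Trpc6 was highest outside these clusters, where cluster 21 had 260 CPM and cluster 11 had 250 CPM, against 120 CPM in cluster 17. Trpc6 was itself the second leading gene of both, after Slc35f3 in cluster 21 and Myo5b in cluster 11. Plcb4 was highest in cluster 25 (662 CPM), and cluster 17 was seventh with 479 CPM.

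**Figure D2:**
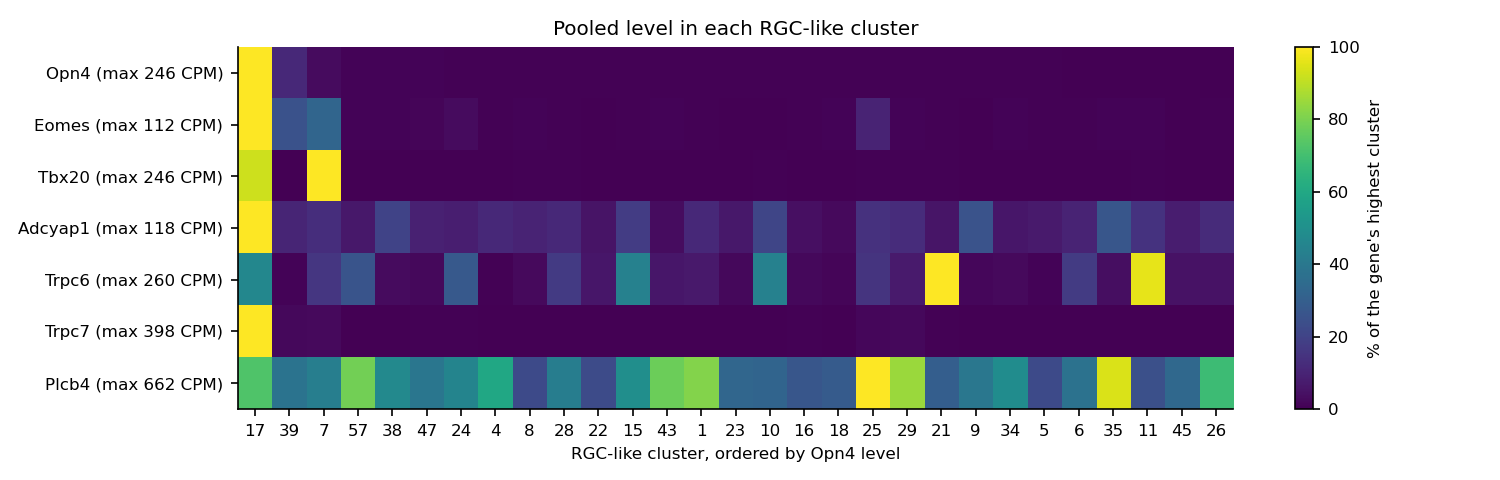
Pooled level of each gene in each RGC-like cluster (horizontal axis, ordered by Opn4 level), coloured as a percent of the highest cluster for that gene, whose CPM stands beside its name. Opn4 and Trpc7 were highest in cluster 17, Tbx20 in clusters 7 and 17, and Trpc6 in clusters 11 and 21, while Plcb4 was spread over all 29 clusters.

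Over the 28 RGC-like clusters with at least 100 nuclei, the level of 12298 genes on the log2(CPM + 1) scale was compared with that of Opn4. The 8 most alike by Pearson correlation were Gldn (r = 0.943), 4930505G20Rik (0.937), Gldnos (0.933), Gm49012 (0.920), Gm29771 (0.920), Ttyh2 (0.905), Acss1 (0.902) and Prkcq (0.890). Clusters share libraries and differ in depth, so these are descriptions over 28 points. Gldn encodes gliomedin, Gldnos lies antisense to it, and Gm49012 is the antisense gene spanning Opn4. Among the members, Eomes (r = 0.867, rank 14) and Trpc7 (0.862, rank 16) were near the top. Tbx20 (0.737) ranked 61 and Adcyap1 (0.536) ranked 265, whereas Plcb4 (0.152) and Trpc6 (0.115) ranked 3518 and 4170. Pou4f1, the Brn3a factor of most image-forming RGCs, was near the opposite end (-0.724, rank 12287).

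Co-detection asked whether the genes were found in the same nuclei. In gated RGC nuclei thinned to 2000 UMIs, 312 of 21847 held an Opn4 UMI, and Trpc7 was the gene that went most closely with it. A Trpc7 UMI was present in 39.1% of Opn4-positive and 1.10% of Opn4-negative nuclei. Eomes was present in 16.4% and 1.02%, Tbx20 in 25.3% and 2.17%, and Adcyap1 in 21.5% and 3.12%. Nuclei of a library are not replicates, so the odds ratios are given per library, with no test. Their log2 mean over 8 libraries was 5.90 for Opn4 with Trpc7 (5.15 to 6.90), 4.39 with Eomes (3.46 to 5.47), 3.95 with Tbx20 (2.92 to 4.82) and 3.19 with Adcyap1 (1.82 to 3.93). All of these were above 0 in 8 of 8 libraries. Opn4 with Trpc6 was weaker at 1.57 (-0.19 to 2.81, above 0 in 7 of 8), as was Opn4 with Plcb4 at 0.70 (-0.07 to 1.42, above 0 in 7 of 8). Without thinning, the means with Opn4 were 5.15 for Trpc7, 4.44 for Tbx20, 4.28 for Eomes, 1.99 for Adcyap1, 1.57 for Plcb4 and 1.14 for Trpc6, so Tbx20 and Eomes changed places with depth, as did Plcb4 and Trpc6.

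Other pairs with Trpc7 were also frequent. Eomes with Trpc7 had a log2 odds ratio of 5.14, Tbx20 with Trpc7 of 4.20, Eomes with Tbx20 of 3.86 and Adcyap1 with Trpc7 of 3.40. Trpc7 with Plcb4 was at 0.81 and above 0 in 8 of 8 libraries, whereas Tbx20 with Plcb4 was at -0.27 and above 0 in 1 of 8. Of the 312 Opn4-positive nuclei, 20.5% held a UMI of at least 3 of the 5 genes Eomes, Tbx20, Adcyap1, Trpc6 and Trpc7, against 0.246% of the others. A further 43.0% of Opn4-positive nuclei held none of the 5 at this depth.

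**Figure D3:**
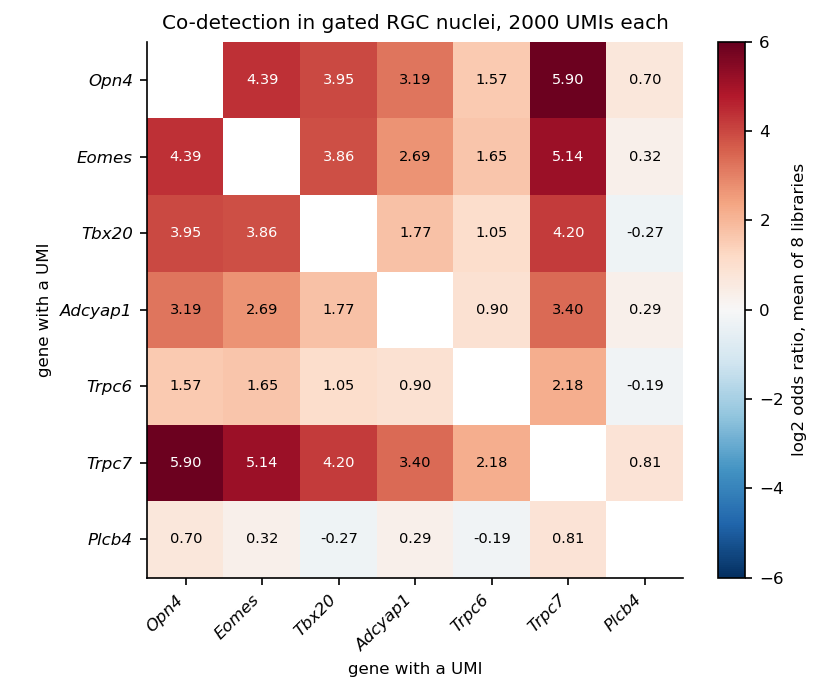
Log2 odds ratio of detecting both genes of a pair in the same gated RGC nucleus, thinned to 2000 UMIs, as the mean of 8 libraries (both axes list the genes). The strongest pairs joined Trpc7 with Opn4 (5.90) and Eomes (5.14), and pairs with Plcb4 lay between -0.27 and 0.81.

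Without thinning, 794 gated nuclei held an Opn4 UMI, 415 of them (52.3%) in cluster 17, 114 (14.4%) in cluster 39 and 68 (8.56%) in cluster 7. The other 197 lay outside these 3 clusters, and 186 of those held a single Opn4 UMI. A single UMI was also the count in 65 of the 68 nuclei of cluster 7, in 77 of the 114 of cluster 39 and in 152 of the 415 of cluster 17. Thinned to 2000 UMIs, cluster 17 held 66.7% of the nuclei with an Opn4 UMI, cluster 39 held 6.09% (19 nuclei) and cluster 7 held 5.77% (18 nuclei). At that depth 32.1% of gated cluster 17 nuclei, 5.52% of cluster 39 and 1.44% of cluster 7 held an Opn4 UMI, against 0.342% of the 19602 gated nuclei outside the 3 clusters. The last share was under the 0.435% of amacrine-like nuclei over all libraries (17 of 3906), which was 0.332% without cKO replicate 10. It lay between the amacrine-like shares in control (0.211%, or 0.0741% without control replicate 3) and cKO libraries (0.648%, or 0.495% without cKO replicate 10), which came from 4 and 13 nuclei. Among the 197 nuclei outside the 3 clusters, without thinning, Tbx20 was present in 4.57% against 0.490% of all gated nuclei outside them, Trpc7 in 4.57% against 0.964% and Eomes in 4.06% against 0.954%. Thinned to 2000 UMIs, 67 nuclei outside the 3 clusters held an Opn4 UMI. Tbx20 was present in 0% of these 67 against 0.199%, Trpc7 in 0% against 0.276% and Eomes in 1.49% against 0.255%. How many of the 197 owe their Opn4 UMI to free RNA was not tested.

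To test what else differed in these nuclei, UMIs were summed per library over Opn4-positive gated nuclei (66 to 127 a library) and Opn4-negative ones, and compared across all genes with the library as a block. Trpc7, Eomes, Tbx20, Adcyap1 and Trpc6 were all higher in Opn4-positive nuclei, and Plcb4 rose by less than the fold threshold. Calls needed an adjusted p below 0.05 and an absolute log2 change over 0.5, and 5 of the 6 members were called, all higher, against 6.55% of 15679 genes called higher (12.2% in either direction). All 6 were higher in 8 of 8 libraries, against 7.55% of genes, and all 6 passed the adjusted p, against 22.2% of genes. Adjusted p-values are from the edgeR quasi-likelihood test with Benjamini-Hochberg adjustment. Log2 changes, here and below, are given with an SE worked back from that test. It is the absolute change divided by the square root of the F statistic, not the spread of changes between libraries. Median depth was 5894 to 12563 UMIs in positive and 4780 to 11052.5 UMIs in negative nuclei, and was higher in positive nuclei in every library. Opn4 itself chose the nuclei and was not counted. The members, and the gene lists below, were chosen with earlier results of these data known. Their counts beside the shares of all genes are therefore not an independent comparison.

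The Trpc7 channel gene was at 115, 205 and 308 CPM (lowest, median and highest of 8 libraries) in Opn4-positive nuclei and at 2.57, 3.59 and 6.38 CPM in Opn4-negative nuclei. The groups lay far apart, by 5.85 ± 0.117 on the log2 scale (adjusted p = 9.04e-32). Trpc6 was at 38.3, 74.1 and 121 CPM in positive and 35.4, 39.2 and 45.4 CPM in negative nuclei (log2 0.92 ± 0.10, adjusted p = 1.12e-09). Its groups overlapped, since positive nuclei of cKO replicate 11 were at 38.3 CPM.

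Eomes was at 55.2, 65.8 and 75.4 CPM in positive and at 3.53, 4.51 and 5.68 CPM in negative nuclei (log2 3.86 ± 0.120, adjusted p = 9.92e-26). Tbx20 was at 95.3, 141 and 176 CPM against 9.89, 15.4 and 20.8 CPM (log2 3.11 ± 0.104, adjusted p = 1.15e-24). Neither T-box gene overlapped between the sums, but the share of all genes without overlap between these sums was not counted. Adcyap1 was at 52.4, 69.6 and 106 CPM against 11.6, 14.8 and 18.4 CPM (log2 2.25 ± 0.104, adjusted p = 2.85e-20). Plcb4 was at 348, 377 and 423 CPM against 295, 317 and 334 CPM (log2 0.27 ± 0.0413, adjusted p = 2.18e-06). Its sums did not overlap either, but the change was under the fold threshold.

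**Figure D4:**
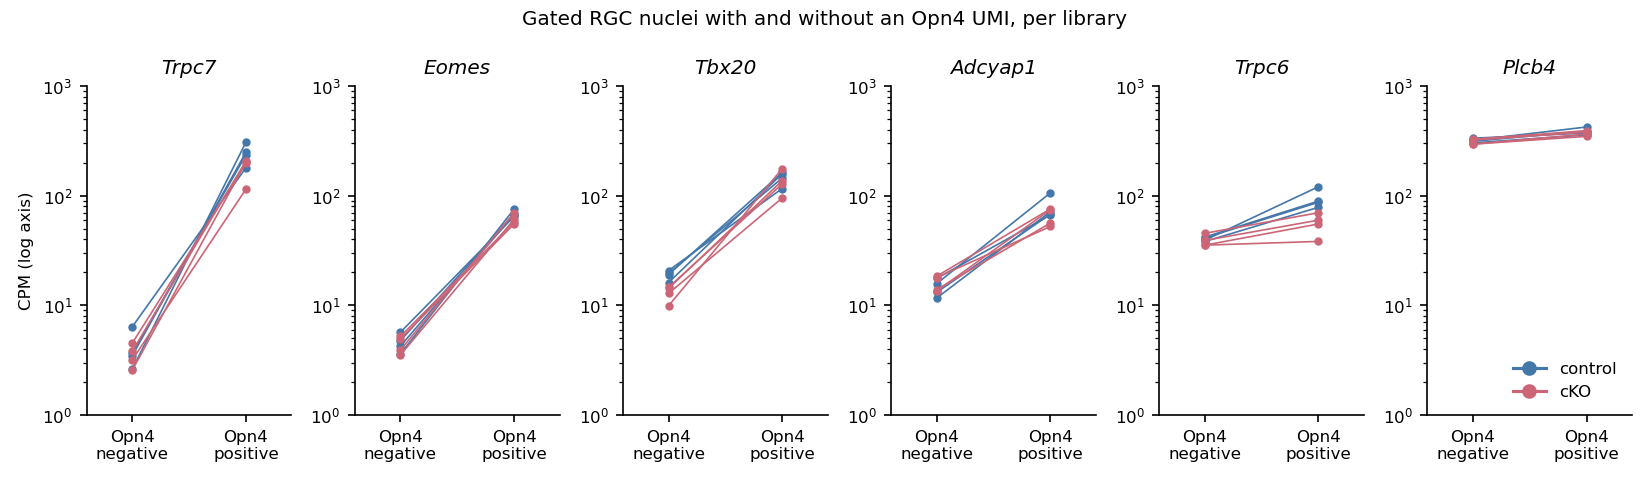
Level of each gene in CPM (log axis) in gated RGC nuclei without and with an Opn4 UMI, with a line for each library. The lines rise in 8 of 8 libraries for each gene, and the log2 change over libraries was largest for Trpc7 and smallest for Plcb4. In cKO replicate 11 Trpc6 (35.4 to 38.3 CPM) rose less on the log axis than Plcb4 (295 to 364.5 CPM).

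Other components of the pathway did not move in the same direction. Of 18 listed genes, 17 were tested and 5 were called, against 12.2% of all genes. Of these, 2 were higher (6.55% of all genes were) and 3 lower (5.66% of all genes were). Another 5 passed the adjusted p with a smaller change and 7 did not pass, where 22.2% of all genes passed at any change. The median log2 change was 0.07 against -0.01 over all genes. The rises were Gna14, a Gq family G protein subunit (log2 5.92 ± 0.173, adjusted p = 1.39e-26, 75.6 ± 21.9 against 1.34 ± 0.731 CPM), and Trpc4, another TRPC channel (0.89 ± 0.199). Gnaq, the widely expressed member of that family, was at log2 0.14 (adjusted p = 0.0199) and Gna11 at 0.07 (adjusted p = 0.790). The falls were Itpr1 (-1.38 ± 0.0663) and Itpr2 (-0.64 ± 0.106), receptors that release calcium from internal stores, and Plcb1 (-0.85 ± 0.0439), a phospholipase C related to Plcb4.

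A list of 9 ipRGC subtype genes was likewise chosen with earlier results of these data known. In it 6 were called higher and 2 lower, with a median log2 change of 1.5 against -0.01 over all genes tested. Over all genes tested 6.55% were called higher and 5.66% lower. The rises included Rasgrp1, an activator of Ras known from ipRGCs (4.11 ± 0.141), Il1rapl2 (3.33 ± 0.0750), Spp1 (2.33 ± 0.0853) and the neuropeptide gene Nmb (1.31 ± 0.209). Pou4f1 fell (-1.38 ± 0.0940), as did Serpine2 (-0.63 ± 0.217). Pou4f2, the Brn3b factor, was at 0.22 ± 0.108 (adjusted p = 0.154). Of 6 other opsin genes tested, 1 was called higher, against 6.55% over all genes tested. It was Opn3 (1.03 ± 0.298, adjusted p = 0.00879), and the rest did not pass.

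The 10 largest rises among genes moving the same way in every library were Gldn (5.95), Gna14 (5.92), Gldnos (5.87), Trpc7 (5.85), Baiap3 (5.22), Trabd2b (5.13), Hpse2 (5.02), Entpd1 (4.70), Bmp7 (4.28) and Gm49012 (4.22). Gm49012 spans Opn4, the gene that chose the nuclei, and whether their reads were counted apart could not be checked. Entpd1 encodes an enzyme that breaks down extracellular ATP, and Bmp7 a secreted growth factor. Gldn was at 132 ± 25.5 CPM in positive and 2.19 ± 0.989 CPM in negative nuclei (n = 8). The 5 largest falls were Gm56822 (-2.22), A730049H05Rik (-2.19), Myo5b (-2.13), Serpinb8 (-2.10) and Tfap2d (-2.04). Myo5b, a myosin motor, was at 27.3 ± 12.8 against 119 ± 10.5 CPM, and Tfap2d, an AP-2 transcription factor, at 15.7 ± 6.08 against 62.6 ± 6.09 CPM.

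Markers of other classes were read beside these changes. Of 5 horizontal cell markers tested, 3 were higher in Opn4-positive nuclei (Calb1, Onecut1 and Onecut2), with a summed level of 331 to 541 CPM in positive and 310 to 370 CPM in negative nuclei and none of the 6 listed at 0. Onecut genes are also expressed by some RGC types. Photoreceptor markers summed to 188 to 842 and 231 to 679 CPM, with 3 of 9 lower, and amacrine markers to 143 to 190 and 140 to 176 CPM, with 1 higher and 1 lower of 7. None of the listed markers in either class was at 0. Bipolar markers summed to 381 to 526 and 493 to 546 CPM (1 of 6 lower, Grik1), and Müller glia markers to 78.4 to 166 and 84.9 to 178 CPM (2 of 7 lower, Slc1a3 and Aqp4). Of astrocyte markers, S100b was higher (1 of 2 tested, 34.3 to 48.9 and 27.4 to 39.1 CPM summed). Of oligodendrocyte lineage markers, Mbp was lower (1 of 2 tested, 9.45 to 21.5 and 18.9 to 26.3 CPM summed), and Sox10 and Olig1 were at 0 in positive nuclei. No endothelial, pericyte or microglia marker was called. The RGC markers themselves summed to 1567 to 2049 CPM in positive and 2048 to 2455 CPM in negative nuclei, with Pou4f1 called lower of 8. The part of these markers in the result was not tested.

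The last question was whether the members differed between control and cKO retinae. In RGC-like nuclei 0 of 7 members were called, as were 0 of all 17879 genes tested (0%) by edgeR, with 651 genes below an unadjusted p of 0.05. With DESeq2 there were 3 calls (0.0168%), and the member Tbx20 was among them. The sources used here do not tie libraries to particular animals, so p-values measure the spread between libraries, which may be partly technical.

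Tbx20 was at 24.1, 27.6, 29.0 and 31.1 CPM in control replicates 1 to 4 and at 22.3, 23.2, 18.1 and 19.3 CPM in cKO replicates 10 to 13. The groups did not overlap, as was the case for 3.55% of all genes. The log2 change was -0.51 ± 0.101 (27.9 ± 2.92 against 20.7 ± 2.46 CPM), with an edgeR adjusted p of 0.981 and a DESeq2 adjusted p of 0.0404. In Opn4-negative gated nuclei Tbx20 was at 16.1 to 20.8 CPM in control and 9.89 to 14.6 CPM in cKO, without overlap (3.54% of genes there). Of all gated nuclei 89.4% were RGC-like nuclei too, so this is not a separate result. In Opn4-positive nuclei the Tbx20 ranges of 116 to 163 and 95.3 to 176 CPM overlapped. In cluster 7, which held most Tbx20 UMIs, it was at 195, 334, 273 and 341 CPM in control and 229, 189, 187 and 166 CPM in cKO, with overlap at control replicate 1. Cluster 7 made up 5.81 ± 0.192% of gated RGC nuclei in control and 5.54 ± 0.725% in cKO (SD, n = 4 each).

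Opn4 was at 9.18, 9.32, 14.0 and 10.8 CPM in control and 11.1, 15.2, 9.61 and 8.09 CPM in cKO RGC-like nuclei, so the groups overlapped fully (log2 -0.06 ± 0.186, edgeR adjusted p = 0.993). The share of gated nuclei with an Opn4 UMI, thinned to 2000 UMIs, was 1.34, 1.26, 1.62 and 1.28% in control and 1.47, 1.78, 1.31 and 1.22% in cKO. The difference of 0.0727 percentage points was within the spread between libraries (1.37 ± 0.167 against 1.45 ± 0.246%, two-sided exact permutation test over 70 assignments, p = 0.657, smallest possible p = 0.0286). Unthinned, the shares were 3.69 ± 0.605% and 3.63 ± 0.459% (n = 4 each).

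Trpc7 was at 13.8, 15.8, 17.2 and 20.4 CPM in control and 16.0, 10.9, 13.5 and 14.1 CPM in cKO (log2 -0.37 ± 0.149). Trpc6 was at 42.7, 45.7, 47.5 and 47.0 CPM in control and 48.8, 37.6, 39.3 and 42.6 CPM in cKO (log2 -0.19 ± 0.0904). Control and cKO overlapped for both channels. Eomes (8.28 ± 0.236 against 8.04 ± 0.839 CPM), Adcyap1 (16.8 ± 2.16 against 17.2 ± 2.31 CPM) and Plcb4 (310 ± 12.9 against 303 ± 15.2 CPM) differed by 0.11 or less on the log2 scale, with edgeR adjusted p of 0.981 to 0.994. The pathway, subtype and opsin lists held 0 called genes, with median log2 changes of -0.02, 0.08 and 0.22 against 0.01 over all genes. No marker of another class was called between genotypes in RGC-like nuclei.

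**Figure D5:**
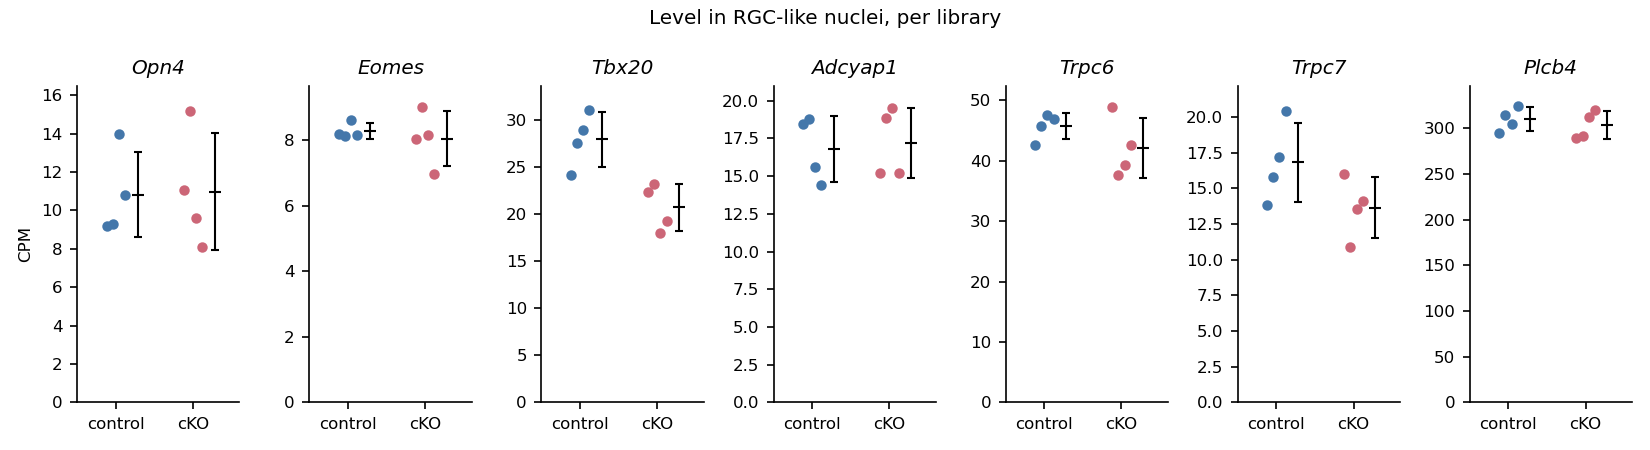
Level of each gene in CPM in RGC-like nuclei, with a point for each library and the mean ± SD (bars) of 4 control and 4 cKO libraries. Only Tbx20 separated the groups, at 24.1 CPM or more in control and 23.2 CPM or less in cKO, and its edgeR adjusted p was 0.981.

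In amacrine-like nuclei 4 of 7 members had enough counts to be tested and 0 were called, as were 0 of 13739 genes (0%, 506 below an unadjusted p of 0.05, 3 called by DESeq2). Eomes was at 21.9 ± 3.30 CPM in control and 17.7 ± 3.47 CPM in cKO (log2 -0.37 ± 0.167, edgeR adjusted p = 1.00). The groups overlapped for each of the 4, and 2.9% of all genes had groups that did not. Opn4, Tbx20 and Adcyap1 did not pass the filter on low counts there.

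Whether the difference between Opn4-positive and Opn4-negative nuclei itself changed with genotype was tested as an interaction, in which 0 of 6 members were called and 1 of 16677 genes was (0.006%). Trpc6 came nearest. In Opn4-positive nuclei it was at 78.3, 121, 87.1 and 89.3 CPM in control replicates 1 to 4 and at 69.9, 38.3, 55.2 and 59.8 CPM in cKO replicates 10 to 13, without overlap, as was the case for 3.21% of genes in these nuclei. In Opn4-negative nuclei it was at 38.2 to 41.9 CPM in control and 35.4 to 45.4 CPM in cKO, with overlap. In cluster 17 Trpc6 was at 117, 179, 125 and 203 CPM in control and 142, 58.2, 87.4 and 67.8 CPM in cKO, with overlap at cKO replicate 10. The Trpc6 interaction was -0.72 ± 0.155 on the log2 scale (edgeR unadjusted p = 3.4e-05, adjusted p = 0.144). It stayed uncalled in 16 of 17 alternatives, and was called only without the filter on low counts (edgeR adjusted p = 0.00984). Tbx20 was at 0.48 ± 0.174 and Adcyap1 at -0.44 ± 0.178 (edgeR adjusted p = 0.979 for each).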

How the data were processed

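Counts were deposited by the authors as whole-number UMI counts per gene and droplet barcode for each library, made with Cell Ranger 7.0.0 on GRCm39. These counts precede the authors' removal of free RNA and their later filters. The filters were rebuilt here, but free RNA was not removed from the counts. Of 12695972 barcodes listed, 45946 were called as nuclei by a UMI threshold and a test against empty droplets, 9620 were removed by quality filters and 1377 (3.79%) as Scrublet doublets, the highest-scoring 0.8% per 1000 nuclei of a library, since its own threshold marked 266 (0.732%). Nuclei were clustered (scanpy 1.11.5, Leiden, resolution 0.7) with the members, Piezo1, Piezo2 and Olig2 kept out of the 2000 genes used, and named from marker genes. A class was named from at least 3 markers, and names may differ from those of the study.

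UMIs were summed per library and tested by the quasi-likelihood F test of edgeR 4.0.16 (R 4.3.3), with TMM scaling, filterByExpr and Benjamini-Hochberg adjustment over all genes tested, with DESeq2 1.42.0 as an alternative. Genotype was the only term, or the library a block for Opn4 status. Precision rests on 4 libraries a group and on gated nuclei with a median of 4827.5 to 11062.5 UMIs a library, and intervals and limits cover counting error only. On simulated data for the genotype comparison in RGC-like nuclei, 74 of 85 genes changed by 1 on the log2 scale were recovered, with 9 false calls among 17703. Smaller changes, such as those of the members by genotype, were not simulated, so this does not measure their recovery.

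Groups came from the sample labels. The members, gene lists and markers were chosen with earlier results of these data known. Named genes were the 7 members, the 10 largest rises and 5 largest falls called in the Opn4 status test with the same direction in every library and at least 10 CPM in the higher sum, and the 8 genes most like Opn4. Alternatives were other filters on nuclei and genes, another gate, thinning, at least 2 Opn4 UMIs, DESeq2 and leaving out each library. Promoter sequence came from GRCm39 with GENCODE vM39.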

Additional observations from a re-analysis of the deposited data

Results flagged for a closer look

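Of 102 groups of 4 libraries tested for a library far from the others (by Dixon's ratio of the gap to the range), 8 were picked out, and chance alone picks about 1 in 20. In RGC-like nuclei Eomes had a ratio of 0.908, with control replicate 3 at 8.63 CPM and the next library at 8.18 CPM. In amacrine-like nuclei Opn4 had a ratio of 0.888 (1 cKO library at 5.59 CPM, the next at 1.93 CPM) and Tbx20 a ratio of 0.980 (1 control library at 3.44 CPM, the next at 0.372 CPM). In Opn4-positive gated RGC nuclei Trpc7 had a ratio of 0.920, with cKO replicate 11 at 115 CPM and the next at 200.4 CPM. Adcyap1 there had a ratio of 0.877, with control replicate 2 at 106 CPM and the next at 71.4 CPM. Eomes in cluster 17 had a ratio of 0.869, with control replicate 4 at 163 CPM and the next at 109 CPM. Tbx20 in cluster 39 had a ratio of 1, with control replicate 3 at 3.10 CPM and the other control libraries at 0. The share of gated RGC nuclei in cluster 39 had a ratio of 0.886, with control replicate 1 at 1.62% and the next at 1.37%.

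A gene that is no member, named after its values were seen, was called in the test of whether the difference by Opn4 status changed with genotype, a call that held under 9 of 17 alternatives. Npas3, a neuronal transcription factor gene, was at 303 ± 40.7 CPM in control and 190 ± 36.1 CPM in cKO Opn4-positive nuclei, against 154 ± 13.4 and 144 ± 7.33 CPM in Opn4-negative nuclei (SD, n = 4 each). The interaction was -0.58 ± 0.106 on the log2 scale (edgeR adjusted p = 0.0415). The call was lost with DESeq2 (adjusted p = 0.297), after thinning (adjusted p = 1) and in RGC-like clusters in place of the gate (edgeR adjusted p = 0.0774), and in 5 of 8 fits with a library left out, namely without control replicates 2, 3 or 4 or cKO replicates 11 or 12 (edgeR adjusted p of up to 0.233). Over all 17 the interaction was -0.74 to -0.48.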

How the results depend on the processing

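No paired analysis was possible because the replicate numbers of the groups do not overlap. The count of genotype calls in RGC-like nuclei was 3 with DESeq2 in place of 0, and in amacrine-like nuclei it was 3 with DESeq2 and 18 without the filter on low counts. The count of Opn4 status calls was 996 after thinning in place of 1914, with 653 genes in both, and 1807 to 1925 with a library left out. After thinning 372 were called higher and 624 lower, in place of 1027 and 887. The interaction count of 1 became 0 with DESeq2, 7 without the filter, 3 without doublet removal, 49 with at least 2 Opn4 UMIs and 0 in RGC-like clusters in place of the gate, and was 0 to 6 with a library left out. The difference in the share of nuclei with an Opn4 UMI was -0.0654 points without thinning and -0.0396 to 0.154 points with a library left out.

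Among member values, 178 kept their direction and side of the threshold under processing alternatives, 6 changed sign and 3 newly passed, and with a library left out 175 kept them and 9 changed sign. No sign change touched a called value. By genotype in RGC-like nuclei, thinning put Eomes at 0.064 and Adcyap1 at 0.20, and the gate put Adcyap1 at 0.0083. With a library left out, Opn4 ranged from -0.22 to 0.097, changing sign without control replicate 3 or cKO replicate 13 (0.04). Adcyap1 ranged from -0.11 to 0.037, changing sign without control replicate 2 (0.036) and without cKO replicates 10 or 13 (0.0086). In amacrine-like nuclei Plcb4 ranged from -0.036 to 0.11, changing sign without cKO replicate 13. Trpc7 there was at -0.16 after thinning and ranged from -0.034 to 0.26, changing sign without cKO replicate 13 or control replicate 1 (-0.0089). In the interaction, thinning put Plcb4 at 0.21 and Trpc7 at 0.036, and Plcb4 ranged from -0.060 to 0.037, changing sign without control replicate 2. Plcb4 passed the fold threshold by Opn4 status with at least 2 Opn4 UMIs (0.55). The cause of these moves was not tested. Of the 794 gated nuclei with an Opn4 UMI, 312 kept 1 or more after thinning.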

Other observations

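Outside RGCs, levels of 4 members varied between clusters of a class. Eomes was at 74.7 CPM in amacrine-like cluster 20, which was led by Tlr4 and the tachykinin gene Tac2, and at 40.7 CPM in amacrine-like cluster 53, which was led by the somatostatin gene Sst. Trpc7 was at 147 CPM in cluster 53 and at 200.6 CPM in bipolar-like cluster 51. It was at 80.0 CPM in cluster 40, the only horizontal-like cluster. Trpc6 reached 83.2 CPM in amacrine-like cluster 12. Plcb4 was at 1649 CPM in bipolar-like cluster 52, above its level in every RGC-like cluster. These are pooled levels over libraries, with no test.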
